A study of Mus musculus with 57 samples.

Results

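Corticospinal neurons (CSN) of Sod1G86R mice were compared with those of wild-type mice at 90 days by RNA sequencing, gene by gene. The comparison used 8 of the 57 libraries of the series, 4 of each genotype, chosen by the genotype, cell type and age in their labels. The Sod1G86R libraries were replicates 3, 5, 6 and 8 and the wild-type libraries were replicates 3, 6, 7 and 9. In every list of values below, libraries stand in that order. The labels give ages as bare numbers, read here as days, name the tissue as brain, and say neither how the CSN were purified nor what the control cells of the series are. The replicate numbers read as animals, and all 8 animals also gave a library of control cells. The labels do not state that the animals or preparations were separate, so p-values measure the spread between these libraries.

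Corticospinal neurons are the projection neurons of cortical layer V whose axons reach the spinal cord, and they are the upper motor neurons that degenerate in amyotrophic lateral sclerosis (ALS). Sod1G86R mice carry a transgene for mouse superoxide dismutase 1 with a mutation that causes motor neuron disease, expressed throughout the body. The mutant enzyme misfolds, and cells handle misfolded protein through chaperones, the proteasome, autophagy and the lysosome. The title of the series concerns CREB3, a transcription factor that is held in the membrane of the endoplasmic reticulum (ER) and is released by cleavage in the Golgi.

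Levels are the deposited normalised counts, which are reads divided by a size factor for each library. Differences are Sod1G86R minus wild type on the log2(level + 34.2) scale, where 34.2 is 1 ppm of the median CSN column total. A gene passed at an adjusted p under 0.05 in limma over the 19152 genes tested, and the 29 CSN libraries of all ages shared the estimate of the spread. The cell type markers matched the labels: the summed level of 23 markers of CSN and deep-layer neurons was 141563 to 187020 in the 4 Sod1G86R and 143912 to 182773 in the 4 wild-type CSN libraries. In the control cells of the same animals that sum was 17533 to 29178. Bcl11b, Fezf2, Crym and Pcp4, which define these neurons, were all abundant, and the markers Sulf1 and Slco2a1 were the lowest.

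Some library measures differed between the genotypes in the same samples as the genes below. The number of reads recovered from the levels was 36.9 to 58.9 M in Sod1G86R and 22.8 to 32.8 M in wild type, with no overlap (two-sided exact permutation p = 0.0286, the smallest that 70 splits allow, and 0.343 when adjusted over 12 measures). The mitochondrial share of reads was 3.52, 4.21, 4.11 and 8.92% in Sod1G86R and 5.68, 6.32, 9.75 and 11.6% in wild type (exact permutation p = 0.171, adjusted 0.686). The receptor gene share is that of olfactory, vomeronasal and taste receptor genes. It was 0.0064 to 0.0116% in Sod1G86R and 0.0103 to 0.0343% in wild type (exact permutation p = 0.0571, adjusted 0.343). Astrocyte transcripts were present in every CSN library, with a summed level of 30618 to 102138 in Sod1G86R and 23689 to 79307 in wild type, while the control cells had 43962 to 97601. Sums over 12 oligodendrocyte markers ranged from 9508 to 87006 in Sod1G86R and from 4774 to 107631 in wild type. None of the 12 measures passed after adjustment. In bulk RNA, fewer cells of a type and less RNA per cell cannot be told apart.

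The transgene was plain in every library. Sod1 (chr16:90220754-90226329) read 80216, 116950, 128470 and 120550 in Sod1G86R. Wild-type libraries read 3798, 3393, 4072 and 4557. The lowest Sod1G86R library stood far above the highest wild-type one, and the difference was 4.79 ± 0.248 (SE, limma adjusted p = 7.04e-14), or 27.7-fold. Reads of the transgene and of the mouse's own Sod1 gene cannot be told apart. The Sod1 pseudogene Gm8566 on chromosome 6 also differed (3.04, limma adjusted p = 5.74e-07), and its reads are uncertain because the copy shares sequence with Sod1.

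Of the 19152 genes tested, 926 passed (4.84%), with 663 higher (3.46%) and 263 lower (1.37%) in Sod1G86R. The difference was over 2-fold in 366 of them, and the median over all genes tested was -0.02. Without adjustment, 4634 genes had p under 0.05. Of the 926, 4 genes had an adjusted p under 0.01 in limma, 8 under 0.02 and 403 under 0.03. Under quantile normalisation 440 passed, 239 higher and 201 lower, so the share of higher calls was 54.3% there and 71.6% here. With the log2 mitochondrial share, the receptor gene share or the log2 number of recovered reads as a covariate, 4 genes passed in each case. The count was also 4 when 1 of Sod1G86R replicates 3, 5 or 6 or wild-type replicates 7 or 9 was left out. Without Sod1G86R replicate 8, 1982 passed, and without wild-type replicate 6, 1648. The 663 and 263 genes all kept their direction in these fits, with medians of 0.63 and -0.76 with the mitochondrial covariate against 0.93 and -0.98 without it.

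Protein-coding genes were 98.3% of the 663 higher, 58.2% of the 263 lower and 76.6% of all genes tested. The median level was 2917 in the higher genes, 365 in the lower genes and 355 in all genes tested. Relative to the wild-type mean, the median of the 663 higher genes was 1.13, 0.98, 1.12 and 0.48 in the Sod1G86R libraries and 0.19, 0.29, -0.20 and -0.28 in the wild-type libraries. Replicate 8 lay closest to wild type among the Sod1G86R libraries, and it also had the largest mitochondrial share of the 4. Wild-type replicates 7 and 9 lay lowest, and had the 2 largest shares of all 8. Beyond the covariates above, the part of these measures in the difference was not tested.

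**Figure D1:**
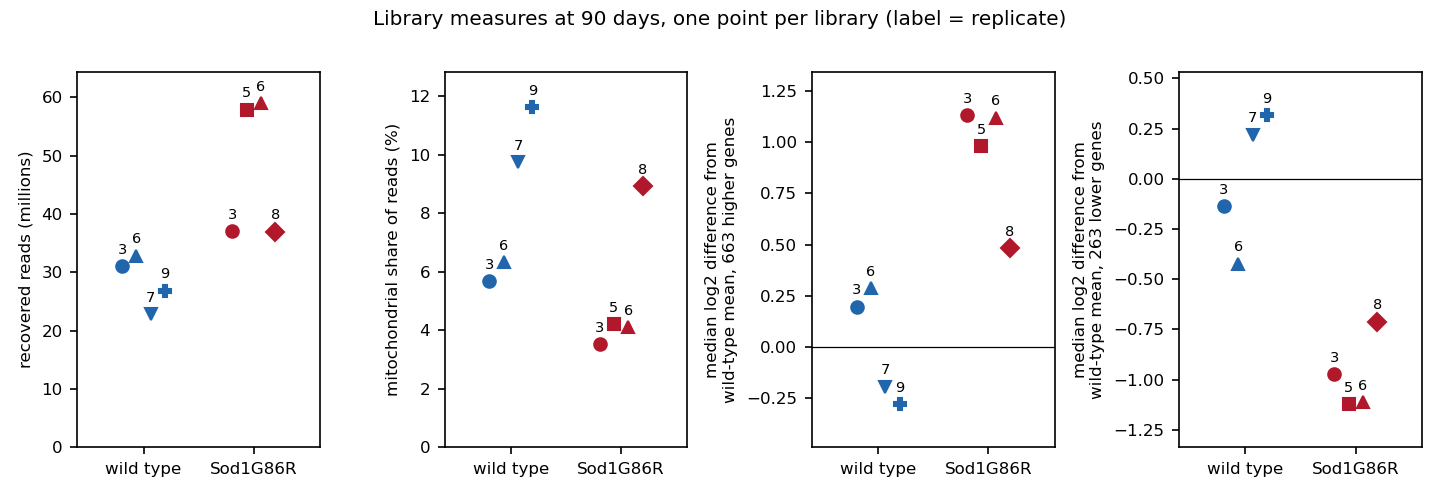
Recovered reads (M), mitochondrial share of reads in percent, and the median log2 difference of the 663 higher and the 263 lower genes from the wild-type mean, with 1 point per library, labelled by replicate, in wild type (blue) and Sod1G86R (red). Sod1G86R replicate 8, with a mitochondrial share of 8.92%, lies nearest to wild type in both gene panels; the genes were chosen by this contrast, so those panels show spread, not support.

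Creb3 was higher in Sod1G86R CSN. Its levels were 6368, 5071, 4147 and 3495 in Sod1G86R and 2897, 3010, 2028 and 1833 in wild type, and the groups did not overlap. The difference was 0.95 ± 0.239 (SE, limma adjusted p = 0.0262), or 1.94-fold. It did not pass with the mitochondrial or the read covariate, and ranged from 0.57 to 1.09 over 27 alternatives, with 17 of them past the threshold. Of 9 tested members of the CREB3 family and its partners, 1 passed, which was Creb3, and the median was 0.21 (0.01 to 0.28 over the alternatives) against -0.02 for all genes.

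Apart from Sod1, and leaving out genes with predicted, clone or Riken names such as Gm8566 and Gm5499 (1.82), the 12 largest rises among called genes whose higher group averaged 342 or more ran from 1.59 to 1.80. Hsd11b1, the enzyme that regenerates active glucocorticoid, read 1260, 1361, 1526 and 1079 against 532, 607, 260 and 164 in wild type. It rose by 1.80 ± 0.470 (SE, limma adjusted p = 0.0313), with every Sod1G86R library above every wild-type one. Ndfip1, an adaptor that brings Nedd4-family ubiquitin ligases to their targets, was the most abundant of the 12. It read 92804, 63388, 84157 and 35535 in Sod1G86R and 30503, 31010, 14224 and 11479 in wild type, a rise of 1.71 ± 0.377 (SE, limma adjusted p = 0.0237). Replicate 8 was again the lowest Sod1G86R library, just above the highest wild-type one.

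Crbn encodes cereblon, the substrate receptor of a cullin ubiquitin ligase. It read 8775, 6660, 7887 and 4005 in Sod1G86R and 2894, 2720, 1536 and 1629 in wild type, with no overlap, and rose by 1.62 ± 0.288 (SE, limma adjusted p = 0.0137). Hnmt, which methylates histamine, read 1649, 2305, 1942 and 1385 against 609, 867, 541 and 347. These groups also stood apart, and the rise was 1.61 (limma adjusted p = 0.0168). Gnb5, a G protein beta subunit that pairs with RGS proteins, read 11230, 7449, 8803 and 4619 against 4610, 4078, 1968 and 1079. Its lowest Sod1G86R value was almost level with the highest wild-type value, and the rise was 1.59 (limma adjusted p = 0.0241).

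The other 7 of the 12 largest rises were Zdhhc16 (a palmitoyltransferase), Kbtbd4 (an adaptor of a cullin ligase), Pgam5 (a mitochondrial phosphatase), Ak8 (an adenylate kinase), Dph1 (diphthamide synthesis), Rab2b (a small GTPase of the early secretory route) and Zfp869. They rose by 1.61 to 1.79. For Zdhhc16, Dph1 and Rab2b the groups overlapped, through replicate 8 in each case. Rab2b in Sod1G86R read 1326, 1325, 1358 and 636, and the highest wild-type value was 638.

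The 12 largest falls under the same limits ran from 1.16 to 2.52, and Prss12, Fnbp1l and Rwdd3 among them lie in 1 stretch of chromosome 3. Genes left out for their names fell as much, among them 1810037I17Rik of that stretch (-1.39). Shank1, a scaffold of the postsynaptic density, read 840, 1201, 615 and 1410 in Sod1G86R and 2125, 1463, 2384 and 4590 in wild type. The groups came close at replicate 8 and wild-type replicate 6 without overlapping, and the difference was -1.29 ± 0.299 (SE, limma adjusted p = 0.0237). Celf5, a neuronal RNA-binding protein that regulates splicing, read 1436, 1069, 1238 and 1735 against 3167, 2017, 3465 and 4858, a fall of 1.24 that left the groups apart (limma adjusted p = 0.0226). Npas4, a transcription factor induced by neuronal activity, read 227, 470, 344 and 465 against 582, 751, 1375 and 910. It fell by 1.17 ± 0.332 (SE, limma adjusted p = 0.0403).

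Prss12 and Fnbp1l, both of the chromosome 3 stretch described further on, had the smallest p-values after Sod1 and its pseudogene. Prss12 encodes neurotrypsin, a serine protease of the synapse, and read 789, 640, 871 and 790 in Sod1G86R and 1727, 1612, 1977 and 2147 in wild type. It fell by 1.24 ± 0.176 (SE, limma adjusted p = 0.000593). Fnbp1l, a membrane-bending protein that links to actin, read 3277, 3050, 3570 and 3227 against 7691, 8798, 7014 and 6800. Replicates of each genotype were close to each other in both genes, and Fnbp1l fell by 1.19 ± 0.185 (SE, limma adjusted p = 0.00219). Sod1, Prss12 and Gm8566 were the 3 genes that passed in the reported fit and all 27 alternatives. Fnbp1l passed in 26, and had an adjusted p of 0.171 with the read covariate.

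The other 7 of the 12 largest falls were Mir6240, mt-Co2, Pou1f1, Tnrc18, Pdap1, Pbld2 and Rwdd3. Mir6240, a microRNA locus, read 2414, 2630, 2854 and 4664 in Sod1G86R and 11401, 8510, 29104 and 33154 in wild type. It had the largest fall, of 2.52 ± 0.539 (SE, limma adjusted p = 0.0237), and the 2 highest values came from wild-type replicates 7 and 9. The assay captures polyadenylated RNA, so these reads are not a measure of the mature microRNA, whose sequence is therefore not shown. Pou1f1, a pituitary transcription factor, fell by 1.68, Tnrc18 by 1.25 and Pdap1 by 1.22, each with the groups apart, and Pbld2 fell by 1.21 with overlapping groups.

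**Figure D2:**
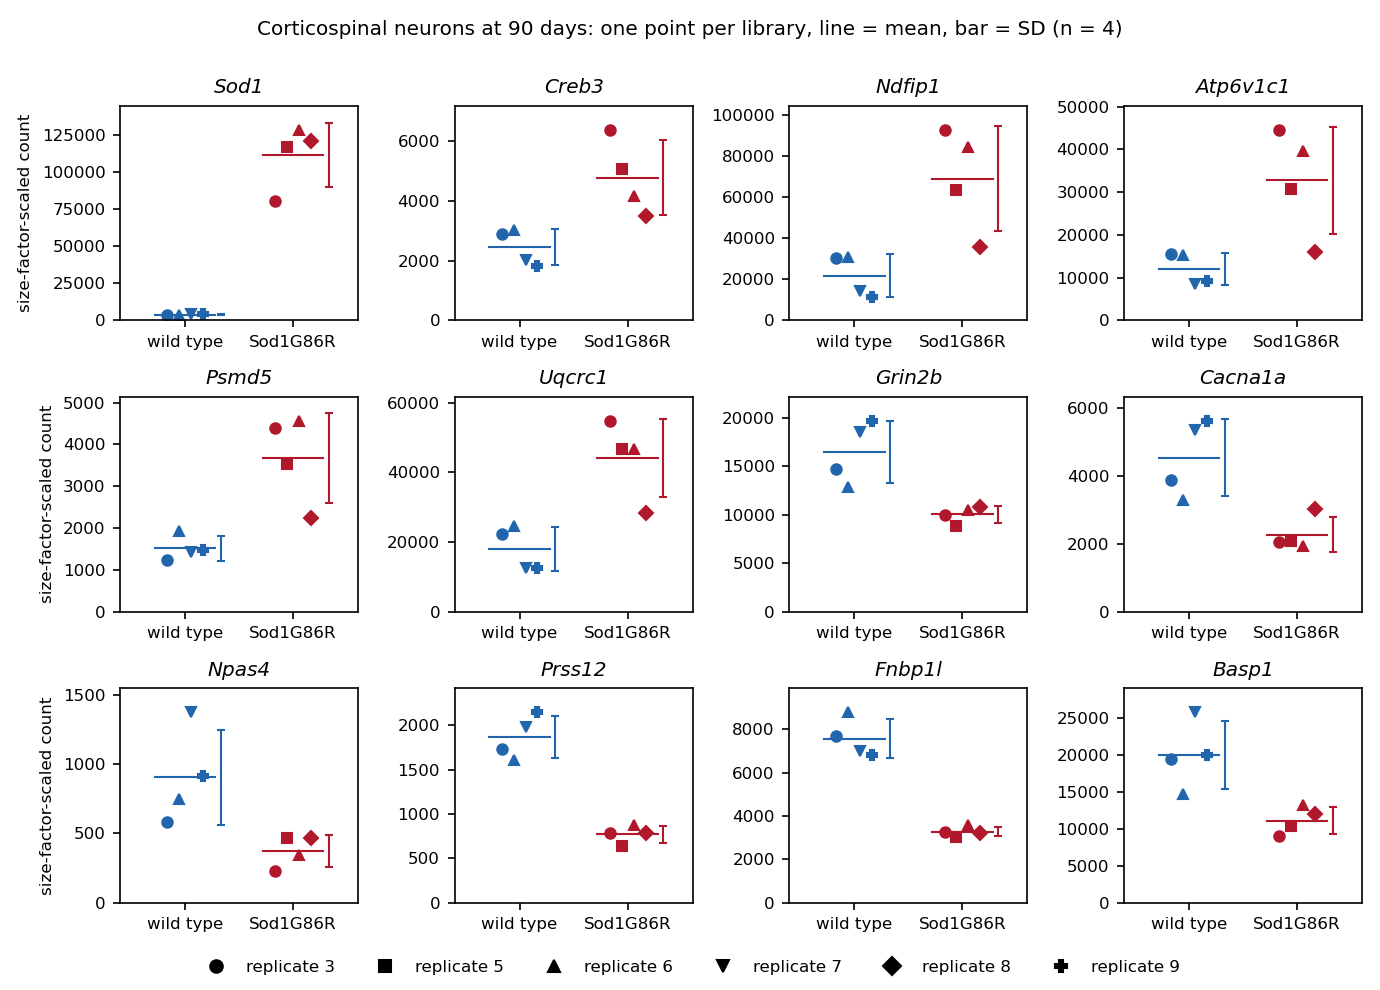
Normalised counts of 12 genes in the 4 wild-type (blue) and 4 Sod1G86R (red) CSN libraries at 90 days; marker shapes give the replicate, lines the mean and bars the SD. In Prss12 and Fnbp1l the groups stand far apart, while in Ndfip1, Atp6v1c1 and Uqcrc1 Sod1G86R replicate 8 lies next to the wild-type libraries.

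Gene groups were read as lists, by how many members passed and by the median difference. Percent called over all genes, 3.46% higher and 1.37% lower, is only a loose background for each count. Abundant protein-coding genes passed as higher in 58 of 849 with 1 to 2 kb of exon and 270 of 2603 with 2 to 4 kb. With over 4 kb it was 304 of 5839. Their medians were 0.31, 0.33 and 0.10. Of 163 with up to 1 kb, 0 passed as higher, and the median was -0.07. Counts and medians near these values do not set a list apart. The higher genes were abundant and nearly all protein coding, as the members of these lists are, and no list was tested as a set. In 9 of the 27 alternatives (no filter on low values, the mitochondrial, receptor and read covariates, and the 5 single-library omissions named above) no member of the lists below passed except in the chromosome 3 stretch. A range in parentheses after a list's median covers the 27 alternatives.

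Genes of protein breakdown were higher where they passed. Of 39 proteasome subunits, 9 rose and 0 fell, with a median of 0.52 (0.18 to 0.63) and 37 of 39 above 0. In 14 of the 39 the Sod1G86R libraries all exceeded the wild-type ones, which was so for 7.3% of all genes tested. Psmd5, a chaperone of the regulatory particle, read 4390, 3519, 4562 and 2228 in Sod1G86R and 1229, 1936, 1423 and 1485 in wild type. The groups stood apart and the rise was 1.22 ± 0.251 (SE, limma adjusted p = 0.0232). Psma1, a subunit of the catalytic core, rose by 1.03, and Psmd11 and Psmc2 of the regulatory particle rose by 0.82 and 0.69. The 5 others that passed were Psmd6, Psmc4, Psmc6, Psmd10 and Psmd14, so 8 of the 9 belong to or assemble the regulatory particle, as do many of the 39.

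The vacuolar proton pump, which acidifies lysosomes and synaptic vesicles, had a median of 0.72 (0.32 to 0.86), and all 17 tested subunits were above 0. Of these 7 rose. Atp6v1c1 read 44645, 30747, 39733 and 16009 in Sod1G86R and 15470, 15278, 8556 and 9260 in wild type, with replicate 8 just above the highest wild-type library. Its rise was 1.38 ± 0.302 (SE, limma adjusted p = 0.0232). Atp6v0c rose by 1.33, Atp6ap2 by 1.29, Atp6ap1 by 1.27, Atp6v1b2 by 1.13, Atp6v0b by 0.81 and Atp6v0d1 by 0.79. In Atp6v1b2 and Atp6v0b the groups overlapped.

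Of 22 lysosomal hydrolases and membrane proteins 4 rose and 0 fell (median 0.52, range 0.31 to 0.59, with 19 above 0). Lamp1, the main membrane glycoprotein of the lysosome, read 12158, 13881, 13159 and 10376 in Sod1G86R and 6591, 7474, 6492 and 5220 in wild type. These groups stood well apart, and the rise was 0.94 ± 0.201 (SE, limma adjusted p = 0.0232). The cathepsins Ctsb, Ctsz and Ctsl rose by 1.01, 0.76 and 0.62. Of 22 autophagy genes 1 rose, Map1lc3b, which coats the autophagosome membrane (1.16, limma adjusted p = 0.0291), and the median was 0.46 (0.31 to 0.54) with 20 above 0.

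Promoters of 6 lists (proteasome, proton pump, lysosome, ER stress, CREB3 family, and ER to Golgi transport) were searched for 3 motifs. The E-box core CACGTG is bound by TFEB and its relatives, TGACGT is the core of the cAMP response element that CREB-type factors bind, and the ER stress response element is bound by ATF6 with NF-Y. The third motif was searched only by its full consensus, CCAAT and CCACG with 9 bases between them, and not in other forms. Each was searched on both strands in the window from 250 bases before to 50 after each RefSeq start (GRCm38.p6). Of 27025 genes, 8.09% had CACGTG, 8.37% had TGACGT and 0.137% had the ER stress element. CACGTG occurred in 6 of the 17 lysosomal genes with a promoter in the table and in 4 of 13 pump subunits. Of 33 proteasome genes 3 had CACGTG and 4 had TGACGT, and of 25 ER stress genes 2 had CACGTG and 4 had TGACGT. In the 8 CREB3 family genes CACGTG was not found and 2 had TGACGT, which also occurred in 4 of the 17 lysosomal genes and 2 of the 13 pump subunits. CACGTG was found in 1 of 25 genes of ER to Golgi transport. TGACGT occurred in 13 of those 25. The ER stress element occurred in 8 of 25 ER stress genes and in no gene of the other 5 lists. Among the members of these lists that rose, CACGTG was found in Lamp1, Ctsl, Atp6v0b, Atp6v0d1 and Dnajb9, TGACGT in Cope, Sec23b, Psma1, Atp6ap2 and Atp6v0b, and the ER stress element in none. The 150 bases before the start are shown for 3 of them, Lamp1 with its repeated CACGTG matches, the pump subunit that holds both short motifs, and the COPII gene with TGACGT, with all matches in capitals.
Lamp1: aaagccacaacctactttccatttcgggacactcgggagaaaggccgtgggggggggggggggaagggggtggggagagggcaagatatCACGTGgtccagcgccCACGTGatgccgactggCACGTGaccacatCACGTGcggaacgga
Atp6v0b: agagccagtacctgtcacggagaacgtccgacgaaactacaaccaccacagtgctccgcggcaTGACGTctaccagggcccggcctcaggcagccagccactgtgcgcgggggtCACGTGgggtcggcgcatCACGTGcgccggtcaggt
Sec23b: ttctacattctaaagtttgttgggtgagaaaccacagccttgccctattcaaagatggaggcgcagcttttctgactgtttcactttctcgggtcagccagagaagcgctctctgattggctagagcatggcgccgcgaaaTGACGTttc
The Lamp1 stretch is chr8:13159011-13159160 on the plus strand, with 4 matches that begin 61, 45, 28 and 15 bases before the start. The Atp6v0b stretch is chr4:117887330-117887479 on the minus strand, with CACGTG 36 and 18 bases and TGACGT 87 bases before the start. The Sec23b stretch is chr2:144556079-144556228 on the plus strand, with TGACGT 9 bases before the start. A match describes the letters only and shows no binding.

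Genes of the ER and the early secretory route that passed were all higher. Of 27 ER stress genes 4 rose and 0 fell, with a median of 0.29 (0.11 to 0.41). Xbp1, a transcription factor of the unfolded protein response, read 6980, 5619, 5866 and 3217 in Sod1G86R and 2659, 3231, 2054 and 1843 in wild type. It rose by 1.12 ± 0.319 (SE, limma adjusted p = 0.0417), and replicate 8 fell inside the wild-type range. Herpud1 (ER-associated degradation) rose by 0.98, Dnajb9 (an ER co-chaperone) by 0.97 and Pdia3 (a disulfide isomerase) by 0.76, each with overlapping groups. Hspa5, the main ER chaperone, did not pass (0.53, limma adjusted p = 0.21), nor did Ddit3 (0.14) or Atf4 (-0.15), the transcription factors of the PERK branch.

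Of 28 genes of ER to Golgi transport 5 rose and 0 fell (median 0.36, range 0.17 to 0.44, 22 above 0). Copg1 and Cope of the COPI coat rose by 0.69 and 0.78, and Sec13, Sec23b and Sar1b of the COPII coat by 0.73, 0.89 and 0.93. Sec23b read 3853, 2789, 2614 and 1884 against 1407, 1869, 1590 and 1031, so that replicate 8 and the highest wild-type library nearly met. Of 30 cytosolic chaperones 2 rose, Cct8 (0.85) and Cct4 (0.90), both subunits of the chaperonin that folds actin and tubulin, and the list's median was 0.25 (0.05 to 0.39).

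Mitochondrial genes were split by where they are encoded. Of 76 nuclear genes of oxidative phosphorylation 10 rose and 0 fell, yet 33 were below 0 and the median was 0.11, which turned to -0.19 under quantile normalisation, -0.21 with the mitochondrial covariate and -0.69 with the read covariate. Uqcrc1, a core subunit of complex III, read 54766, 46605, 46767 and 28235 in Sod1G86R and 22262, 24504, 12471 and 12642 in wild type. The groups stood apart, and the rise was 1.32 ± 0.274 (SE, limma adjusted p = 0.0232). Cyc1 and Uqcrc2 of complex III rose by 1.04 and 1.02, Ndufs1, Ndufv1 and Ndufa9 of complex I by 1.05, 1.04 and 1.15, Sdha and Sdhd of complex II by 0.99 and 1.15, and Atp5b and Atp5c1 of the ATP synthase by 0.87 and 1.02. Genes with over 2 kb of exon had medians of 0.48 (20 genes of 2 to 4 kb) and 0.37 (11 longer genes), and genes below that had medians of -0.13 (17 genes up to 1 kb) and -0.07 (28 genes of 1 to 2 kb).

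All 12 tested genes that the mitochondrial genome encodes were below 0, with a median of -0.69 (-0.85 to -0.07), and 1 passed. That gene, mt-Co2, read 356, 451, 405 and 696 in Sod1G86R and 887, 872, 2073 and 4315 in wild type, with the largest values in wild-type replicates 7 and 9. It fell by 1.74 ± 0.407 (SE, limma adjusted p = 0.0237), and is uncertain since nuclear copies of mitochondrial DNA can share its reads. Both lactate dehydrogenase genes, Ldha (1.10) and Ldhb (1.10), rose among 15 glycolysis genes (median 0.33, range 0.05 to 0.43), and under quantile normalisation 1 gene was called in each direction. Of 22 antioxidant genes 2 rose, Prdx3, the mitochondrial peroxiredoxin (1.20), and Ccs, the copper chaperone that loads superoxide dismutase 1 (0.76). Ccs read 1316, 1607, 1491 and 1287 against 766, 857, 870 and 800, and its groups stood well apart (limma adjusted p = 0.0349). Of 22 cholesterol synthesis genes 3 rose, Nsdhl (1.28), Msmo1 (0.98) and Idi1 (0.95), and the median was 0.46 (0.26 to 0.53).

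Synaptic genes that passed were all lower. Of 22 postsynaptic genes 0 rose and 3 fell, with a median of -0.28 (-0.50 to -0.16) and 18 below 0. Grin2b, the NMDA receptor subunit GluN2B, read 9918, 8871, 10492 and 10832 in Sod1G86R and 14674, 12868, 18527 and 19680 in wild type. The groups stood apart, and the fall was 0.69 ± 0.162 (SE, limma adjusted p = 0.0237). Shank3, a scaffold like Shank1, fell by 0.82. Of 20 presynaptic genes 0 passed in the reported limma fit or in edgeR, with 5 at an unadjusted p under 0.05 in limma. Members were called in 9 of the 27 alternatives, among them DESeq2 with 3 and TMM scaling with 2. Nearest to passing in each direction were Snap25, a SNARE protein (0.78, limma adjusted p = 0.0571), and Unc13a, which primes vesicles (-0.54, limma adjusted p = 0.0709), and both had overlapping groups. The presynaptic median of 0.08 turned to -0.23 under quantile normalisation and with the read covariate.

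Among 24 voltage-gated ion channels 2 fell, both calcium channels, and the median was -0.02 (-0.22 to 0.05). Cacna1a, the pore of P/Q-type channels, read 2039, 2076, 1934 and 3033 against 3876, 3305, 5369 and 5626. Replicate 8 was the Sod1G86R library nearest to wild type, and the fall was 0.98 ± 0.235 (SE, limma adjusted p = 0.0237). Cacna1c, the pore of an L-type channel, fell by 0.73. All 13 immediate early genes, which neurons switch on with activity, were below 0 with a median of -0.62 (-0.71 to -0.45). Npas4 was the 1 that passed. Egr1 (-0.42), Fos (-0.26) and Arc (-0.54) had overlapping groups and adjusted p of 0.295, 0.606 and 0.586 in limma. In control cells of the same animals the list's median was -0.58, and Npas4 differed by -1.34 without passing.

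Of 24 genes of the axonal cytoskeleton and transport 2 rose, Dync1i1, a dynein intermediate chain (0.88), and Tubb4a, a tubulin (0.86), and the median was 0.03. Under quantile normalisation that median turned to -0.27, with 1 gene called higher and 2 lower. Of 19 genes of axon injury and regeneration 1 fell, Basp1, a growth cone protein, and the median was 0.12 (-0.10 to 0.19). Basp1 read 8994, 10365, 13198 and 12003 against 19476, 14697, 25834 and 20056, with the groups apart, and fell by 0.83 ± 0.225 (SE, limma adjusted p = 0.0341). Of 20 apoptosis regulators 1 rose, Bnip3, a mitochondrial protein of hypoxia and mitophagy (1.02), and the median was 0.04 (-0.04 to 0.18).

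None of 27 ALS-linked genes other than Sod1 passed in limma (median 0.08, range -0.11 to 0.17, 5 at an unadjusted p under 0.05), although 9 of the 27 alternatives called members. Nearest were Fig4, a phosphoinositide phosphatase (0.71, limma adjusted p = 0.0544), and Optn, an autophagy receptor (0.98, limma adjusted p = 0.0571). Optn read 264, 204, 237 and 353 in Sod1G86R and 105, 146, 148 and 73.8 in wild type, so the groups stood apart at low levels. None of 18 interferon and antigen presentation genes passed (median -0.01, range -0.08 to 0.15, 2 at an unadjusted p under 0.05), and 2 of the 27 alternatives called a member. None of 46 cytosolic ribosomal proteins passed, although 41 were below 0, 16 had an unadjusted p under 0.05, and the median was -0.38 (-0.89 to -0.31). For these 3 lists edgeR called 0, 0 and 1 genes and DESeq2 called 3, 0 and 3.

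Of 23 identity markers of CSN, 2 rose (Oma1 and Diaph3) and 0 fell, with a median of 0.05 (-0.16 to 0.14). These calls depended on the setting: under quantile normalisation 0 were called higher and 2 lower, and with array weights 2 higher and 3 lower. Bcl11b, the transcription factor that specifies these neurons, read 8875, 7352, 12113 and 9860 against 14371, 12089, 14099 and 13401, with an overlap at replicate 6 (-0.52, limma adjusted p = 0.0733). Of 15 markers of upper-layer and callosal neurons 0 passed (median 0.09, range -0.13 to 0.22). Among markers of other cells 0 passed in the reported limma fit, with 4 at an unadjusted p under 0.05, all lower: 2 of microglia, 1 of endothelial and mural cells and 1 of oligodendrocyte precursors. Some passed as lower in alternatives: the microglia marker Cx3cr1 in 7 of 27 and the precursor marker Cspg4 in 5 of 26. Aif1 of microglia, Pecam1 of endothelium and S100b of astrocytes passed in 1 each. No oligodendrocyte or GABAergic marker passed in any of the 27. Medians were 0.71 for 12 astrocyte, 0.56 for 12 oligodendrocyte, -0.40 for 14 microglia, -0.25 for 13 endothelial and mural, -0.22 for 8 oligodendrocyte precursor and 0.04 for 8 GABAergic markers. Several of these medians moved with 1 library. Without wild-type replicate 3 the astrocyte median was -0.03 and the oligodendrocyte median -0.25, and without wild-type replicate 9 the astrocyte median was 1.30. The microglia median was 0.06 without Sod1G86R replicate 3 and 0.03 without wild-type replicate 7. Over the alternatives the oligodendrocyte median ranged from -0.25 to 1.64, microglia from -0.90 to 0.06, endothelial and mural from -0.45 to 0.55, precursor from -0.71 to 0.48 and GABAergic from -0.17 to 0.36. The groups overlapped in all of these but the precursor marker Cspg4 and the astrocyte marker S100b. Gad1 and Gad2, which define GABAergic neurons, ranged from 17.6 to 528 and from 39.1 to 292, and the precursor marker Cspg4 and the endothelial marker Cdh5 were at 0 in 1 library each. With the glial marker level as a covariate 1102 genes passed.

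**Figure D3:**
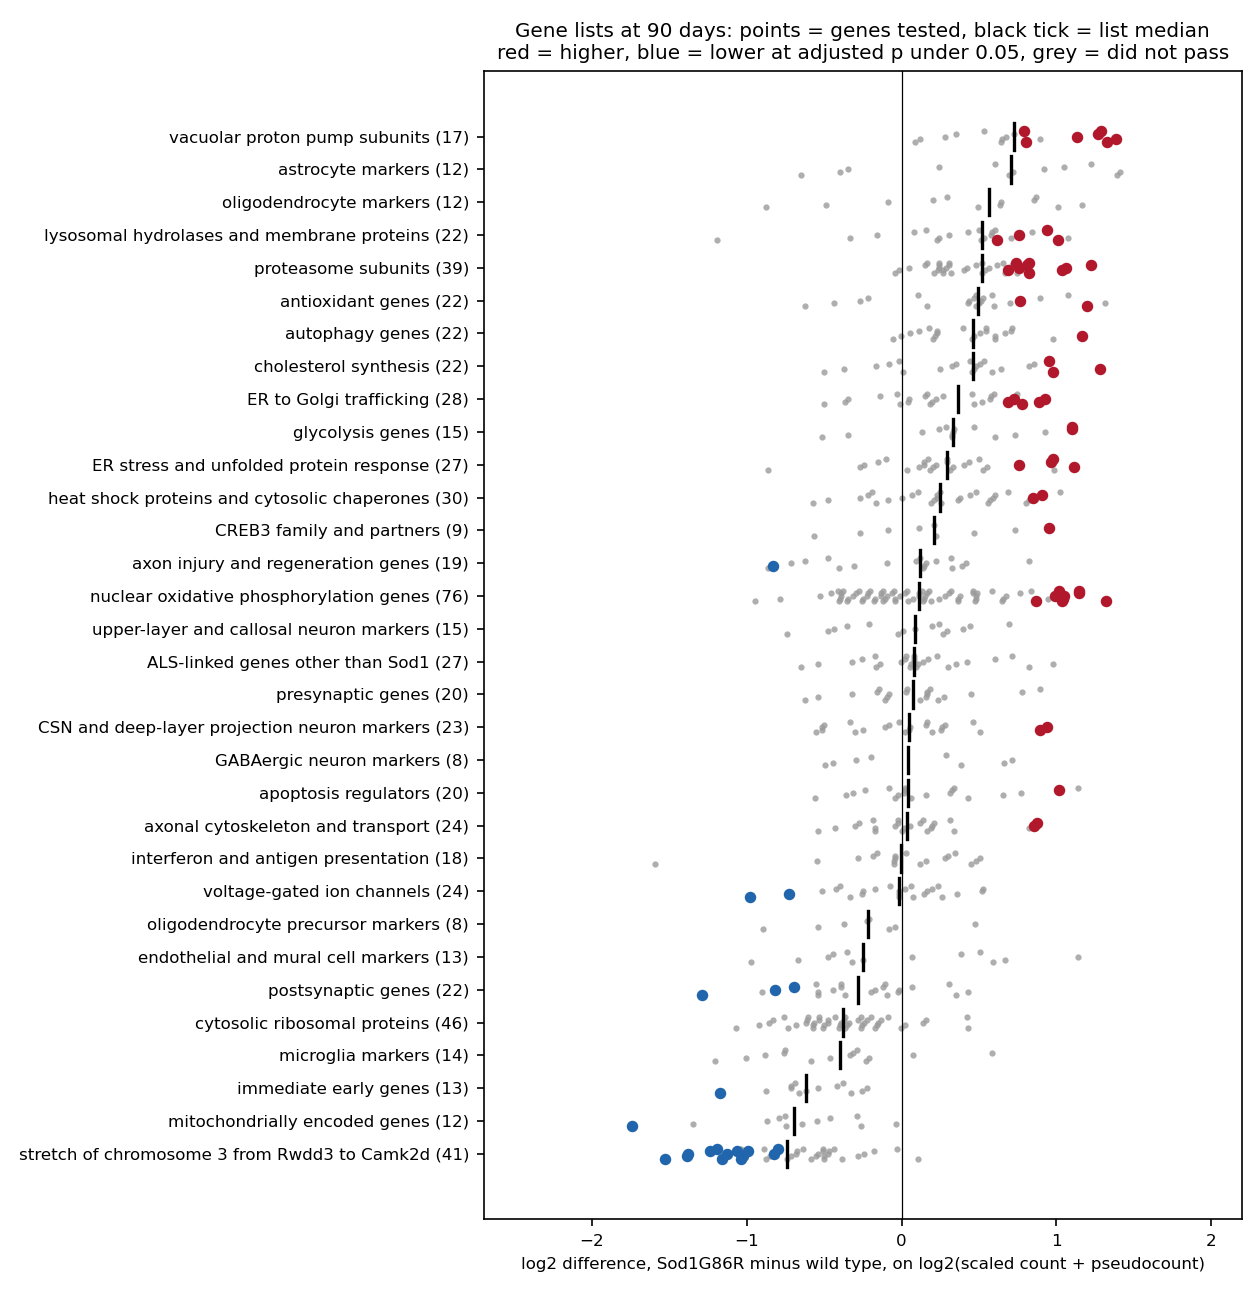
Log2 differences, Sod1G86R minus wild type, of every tested member of each gene list in CSN at 90 days, with the number tested in parentheses. Red points passed as higher, blue as lower, grey did not pass, and black ticks are list medians, from 0.72 for the vacuolar proton pump to -0.74 for the chromosome 3 stretch.

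A stretch of chromosome 3 held Prss12, Fnbp1l and Rwdd3. From Rwdd3 to Camk2d (chr3:121155398-126846326, 5.69 Mb), 41 genes were tested, 13 passed, all of them lower, 40 were below 0, and the groups stood apart downward in 19, against 5.38% of all genes. The median was -0.74. The 5 Mb before and after it had medians of -0.11 and -0.22. There 4 of 29 and 4 of 56 tested genes passed, 2 and 3 of them lower. The 2 lower genes before it were Gm26871 (-1.23) and Gm37928 (-1.33). Both were also below 0 at each other age and in control cells (-1.51 and -1.25), so falls of this kind were not confined to the stretch. The bounds of the stretch were chosen with earlier results of these data known, so its place is a description and not a test.

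Besides Prss12 and Fnbp1l, the genes of the stretch that fell were Rwdd3 (-1.16), a protein of the SUMO pathway, Mettl14 (-1.13), a subunit of the RNA m6A methyltransferase, Pde5a (-0.99), a cGMP phosphodiesterase, Ndst3 (-1.03) and Ndst4 (-1.04), enzymes of heparan sulfate, and Dnttip2 (-0.80). The others were the noncoding Snhg8 (-1.38), 1810037I17Rik and 3 predicted genes, of which Gm42510 lies within Ndst3 on the same strand, so that reads of the pair cannot be told apart. Rwdd3 read 293, 193, 162 and 226 in Sod1G86R and 521, 529, 546 and 484 in wild type. All 4 Sod1G86R libraries, replicate 8 included, lay below the lowest wild-type value.

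The median of the stretch was below 0 in each comparison. In CSN of other ages it was -0.68 (30 days), -0.68 (60 days) and -0.72 (105 days). Control cells of the 90-day animals had -0.58, with 39 of 40 genes below 0. With the mitochondrial covariate the median was -0.64 and with the read covariate -0.67, and over the alternatives ranged from -1.10 to -0.47. Genomic DNA was not measured.

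**Figure D4:**
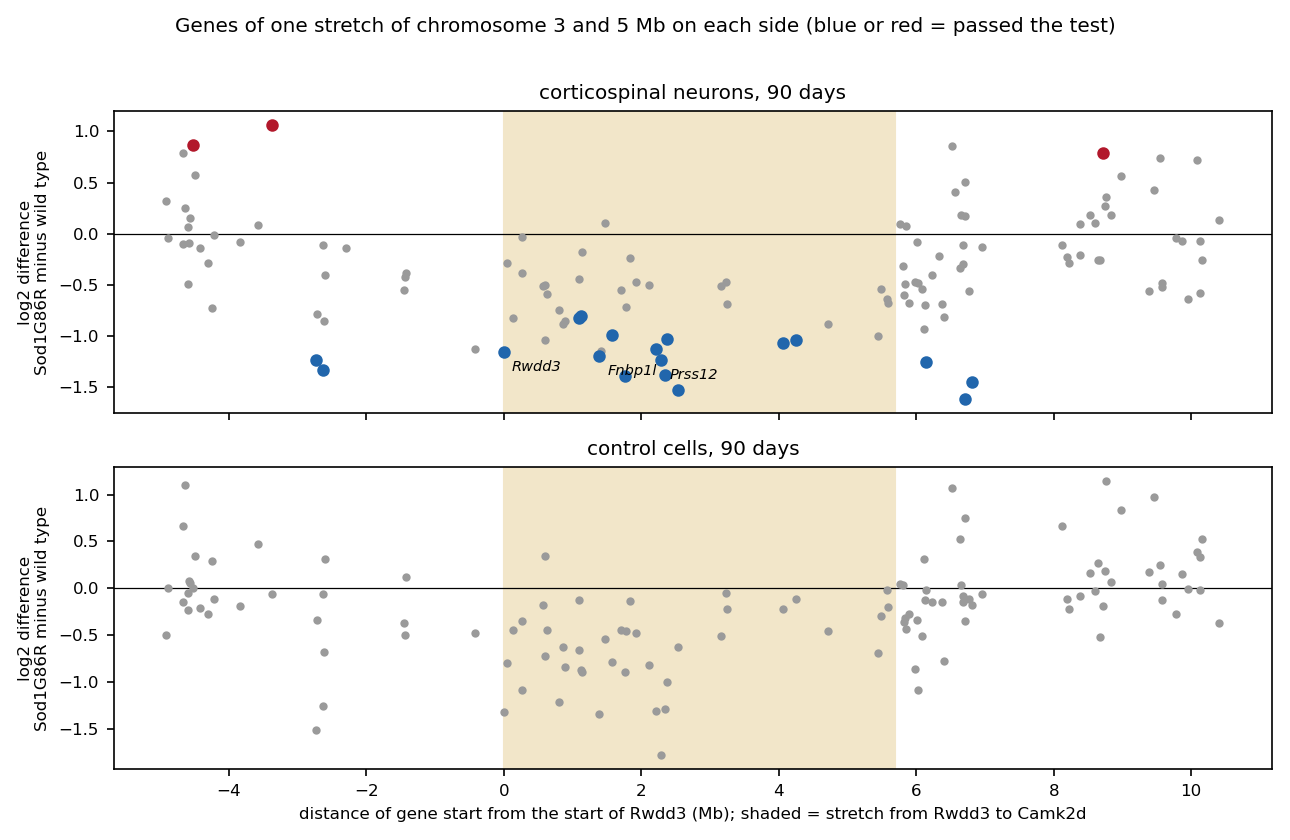
Log2 differences, Sod1G86R minus wild type, at 90 days in CSN (upper panel) and control cells (lower panel) of each gene tested in the shaded stretch of chromosome 3 and 5 Mb on either side, by distance in Mb from the start of Rwdd3. Within the 5.69 Mb, 40 of 41 genes in CSN and 39 of 40 in control cells lie below 0; blue points passed as lower and red as higher.

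The same genotypes were sampled at 30, 60 and 105 days, with 3, 4 and 2 Sod1G86R and 4, 4 and 4 wild-type CSN libraries. There 3, 6 and 4 genes passed in limma (0.0157, 0.0313 and 0.0209% of those tested), with 2571, 1507 and 1536 at an unadjusted p under 0.05. The directions of the 926 genes were compared at those ages. Of the 663 higher genes 97.3% were above 0 at 30 days, 89.1% at 60 days and 94.0% at 105 days, where 47.3, 48.3 and 47.1% of all genes tested were. Of the 263 lower genes 4.18, 25.1 and 7.98% were above 0. Median differences of the higher genes were 0.62, 0.34 and 0.50, below the 0.93 at 90 days, at which they were chosen. The 663 genes were abundant and nearly all protein coding, so all genes tested are a loose background for them. Abundant protein-coding genes with 1 to 2 kb of exon had medians of 0.39, 0.31 and 0.33 at those ages. Those with 2 to 4 kb had 0.27, 0.19 and 0.24, and those with over 4 kb 0.04, 0.02 and 0.07.

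The median mitochondrial share was lower in Sod1G86R at each of those ages, with overlapping ranges and no test. Its medians were 5.47% in Sod1G86R and 9.36% in wild type at 30 days, 6.88 and 10.4% at 60 days, and 5.62 and 7.85% at 105 days. Median recovered reads were higher in Sod1G86R at each of those ages, also with overlapping ranges and no test. The medians were 39.9 M in Sod1G86R and 32.7 M in wild type at 30 days. At 60 days they were 30.1 and 27.1 M, and at 105 days 48.5 and 33.7 M. The part of either measure in the shared direction was not tested. The test of the difference itself, the effect at 90 days minus the mean effect at the other ages, gave no gene at an adjusted p under 0.05 in limma (smallest 0.736, with 1219 at an unadjusted p under 0.05), none in edgeR and 4 in DESeq2. In simulated data this test recovered 26% of 2-fold and 89% of 4-fold changes.

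The 6 genes named for the age difference all passed at 90 days, and none passed the test of the difference. Fech, the enzyme that completes heme, read 3189, 3348, 3062 and 2136 in Sod1G86R and 1472, 1533, 887 and 1207 in wild type, with the groups apart and a difference of 1.19. At 30, 60 and 105 days its difference was 0.31, -0.24 and 0.19, and the age contrast was 1.11 ± 0.250 (SE, limma adjusted p = 0.736). Mfsd1, a lysosomal transporter, differed by 1.39 at 90 days and by -0.14, -0.03 and 0.41 at the other ages. Rnf141 (1.17 at 90 days), Abhd2 (-0.97), Plod3 (-0.86) and Pdap1 (-1.22) were the others, taken as the smallest p per direction among genes at 342 or more with regular symbols. Some genes outside those limits had a smaller p than some of these, such as Slc9a3r2 (age contrast 2.09) and Gm43652 (age contrast -1.40).

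In control cells of the same 8 animals, 2 of 21013 genes passed (0.00952%), with 591 at an unadjusted p under 0.05. Of the 663 genes higher in CSN 85.7% were above 0 there, against 49.3% of all genes, with a median of 0.30, and of 253 lower genes 19.8% were. Abundant protein-coding genes with 1 to 2, 2 to 4 and over 4 kb of exon had medians of 0.14, 0.11 and 0.01 in control cells. Some list medians were close in control cells and CSN: -0.58 and -0.62 for immediate early genes and -0.28 in both for postsynaptic genes. For cholesterol synthesis genes they were 0.44 and 0.46. Others were nearer to 0 in control cells, such as the proton pump (0.24 and 0.72) and the proteasome (0.22 and 0.52). The control cells also differed in makeup. Their summed GABAergic markers were 18100 to 69513 in Sod1G86R and 4281 to 17534 in wild type, with no overlap. Their part in these values was not tested. The difference between CSN and control cells in the genotype effect passed in 0 of 22095 genes in limma, with 824 at an unadjusted p under 0.05, and in 0 in edgeR. In simulated data that test recovered 1% of 2-fold and 44% of 4-fold changes, so it could show only large differences.

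Among the genes nearest to passing, Wnt7b, a secreted Wnt ligand, had -0.85 in CSN and 1.71 in control cells, and Spon1, a matrix protein, had 0.73 and -1.01. The differences of the others were 1.86 for Pqlc2, 1.69 for Mfsd4b4, -1.52 for Kcna6 and -1.49 for Stac2. The Creb3 effect was 0.95 in the CSN libraries but 0.39 in the control cells, and the difference of 0.56 ± 0.369 (SE) did not pass (limma adjusted p = 1). For Prss12 the effect was -1.24 (CSN) and -1.78 (control cells), and for Fnbp1l -1.19 and -1.34.

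**Figure D5:**
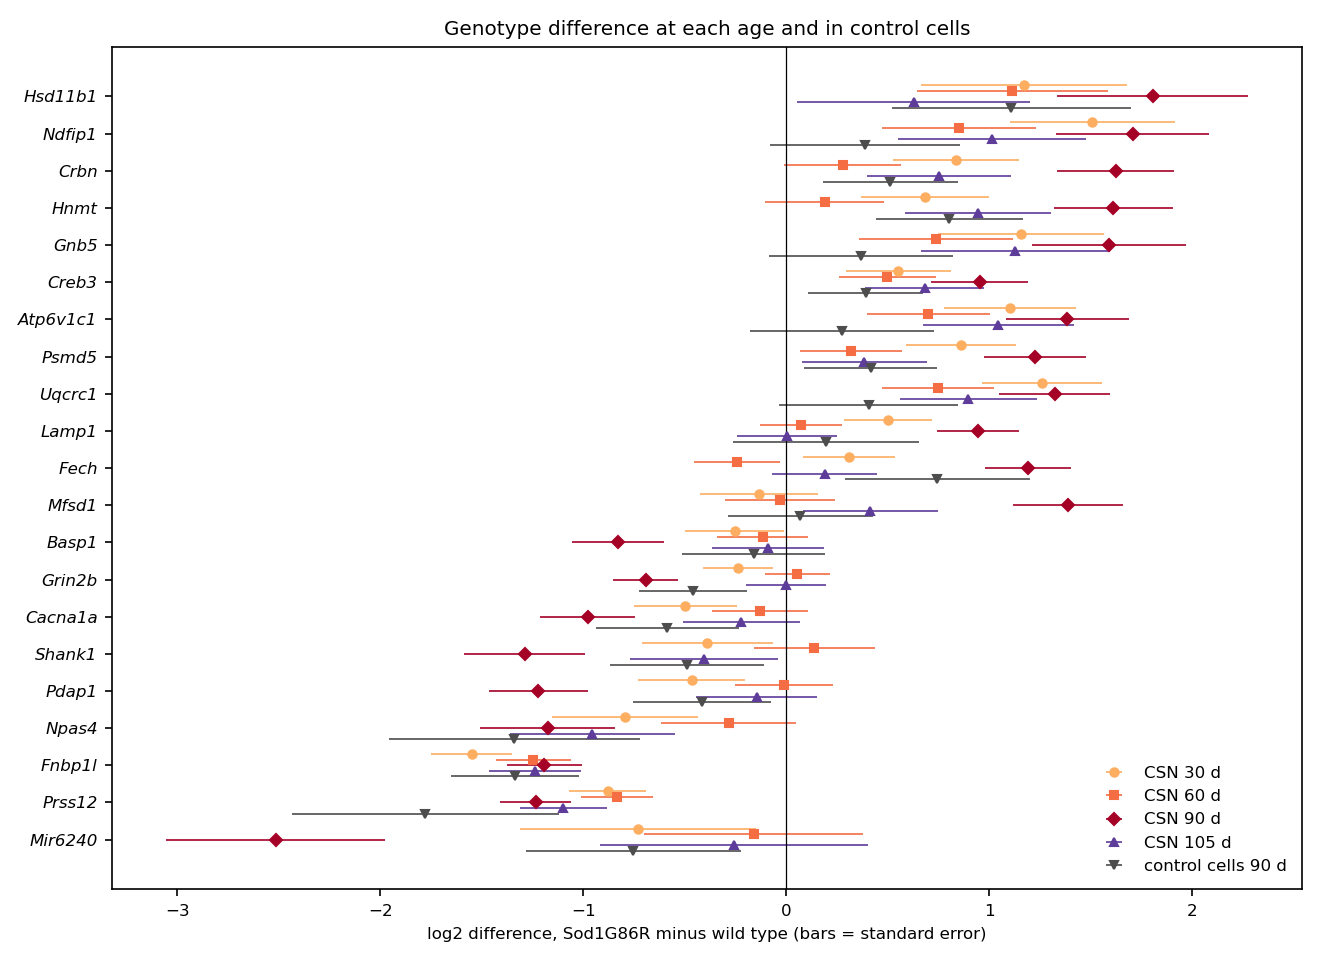
Log2 differences, Sod1G86R minus wild type, with standard errors, of 21 genes in CSN at 30, 60, 90 and 105 days and in control cells at 90 days. Fnbp1l and Prss12 lie below 0 throughout, from -0.83 to -1.78. The 90-day values of Crbn, Hnmt, Fech, Mfsd1, Pdap1 and Mir6240 lie farthest from 0, as do those of Hsd11b1, Ndfip1, Gnb5, Creb3 and Shank1. Genes were chosen with 90-day results known, and the age contrast passed for none in limma.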

How the data were processed

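Per the series' design text, STAR 2.7.0 placed the reads on GRCm38 and counted Ensembl 87 genes, from cDNA made with the SMART-Seq v4 kit and sequenced as paired 50-base reads. The kit does not mark strand. The deposited signal values are normalised counts, per the file headers. How the authors normalised them is not given here in any label or header. edgeR and mm10 appear, with no stated role, in the submitters' processing notes. The values were whole multiples of 1 step per library within 0.001, for 100% of values, so whole reads were recovered by division.

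Genes at 34.2 or more in at least 3 CSN libraries were kept. log2(value + 34.2) was fitted with limma 3.58.1 (trend, robust) over 29 CSN libraries, with 1 coefficient per group and Benjamini-Hochberg adjustment. The difference between cell types used 57 libraries. Library measures were compared by exact permutation. Standard errors are limma's, from the spread between libraries.

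Recovered reads were 22.8 to 58.9 M at 90 days. Correlations between replicates of 1 genotype were 0.950 to 0.981 (median 0.968). Between libraries of different genotype they were 0.937 to 0.981 (median 0.959), and no libraries were near-identical. Alternatives were other pseudocounts, filters and scalings, covariates, array weights, count tests on the recovered reads (edgeR 4.0.16, DESeq2 1.42.0), a replicate block, the 8 libraries alone, and each library left out. The read covariate and thinned reads were added after seeing the data. On simulated data with 18706 genes, limma at 90 days recovered 53% of 2-fold and 91% of 4-fold changes with 7 false calls of 151. Genes were simulated independently of each other.

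Members and lists were chosen with earlier results of these data known. Named are Sod1, Creb3, the 12 largest rises and falls among called genes reaching a mean of 342 in the higher group and having a regular symbol, up to 4 members of each list by p, and for each difference test the 3 smallest p per direction under the same limits of level and symbol. Other genes that passed in a list, Egr1, Fos, Arc, Hspa5, Ddit3, Atf4, Bcl11b, Optn, S100b, Gm5499, Slc9a3r2, Gm43652, Gm8566 and the called genes of the chromosome 3 stretch were named after their values were seen. So were Gm26871 and Gm37928 beside that stretch. Gene positions come from GENCODE M21 (GRCm38) and promoters from RefSeq (GRCm38.p6).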

Additional observations from a re-analysis of the deposited data

Results flagged for a closer look

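A sample far from the other 3 of its group was looked for in 168 groups of 4 values, and 8 were found. Chance alone flags about 1 in 20 of independent groups. Many of the 168 groups share libraries, so the count of 8 cannot be set against that rate. Of the 8 flagged, 7 were Sod1G86R replicate 8. Its mitochondrial share was 8.92%, where the other 3 had 3.52 to 4.21%. It read 636 for Rab2b, 1148 for Pdap1, 14141 for Atp6ap1, 3033 for Cacna1a, 6868 for Cope and 1650 for Nsdhl, each nearer to wild type than the other Sod1G86R libraries. The other flagged sample was Sod1G86R replicate 3, whose mean log2 level of 14 microglia markers was 6.88, the lowest of the group.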

How the results depend on the processing

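Of the 19152 genes, 926 passed, and the count moved by over 1.5 times in many settings. It was 4 with no filter on low values and with the mitochondrial, receptor gene or recovered read covariate, 440 under quantile normalisation, 603 with detected genes as a covariate, 1910 with array weights, 1929 in DESeq2 and 1846 with a replicate block. Leaving out 1 library gave 4 to 1982. The cause of these shifts was not tested. Other settings gave 782 to 1277, and edgeR called 895, of which 790 were shared. The 782 came from the 8 libraries alone, and 574 of them were among the 926. The rest of the 926 did not pass without the spread estimated over the other ages. Deviations from the genotype means correlated at r = 0.39 for the shared replicate number 3 and at -0.03 for number 6. The largest r for unlike numbers was 0.24. The replicate block had a consensus correlation of 0.27, so whether the numbers pair the samples was not settled. For the age difference 4 genes passed in DESeq2 (3 higher, 1 lower) and 0 in every other setting, and for the cell type difference 0 passed in each. Library measures could hardly pass after adjustment over 12, with a smallest possible p of 0.0286 over the 8 libraries. Their 0 in each setting therefore says nothing of stability. With an animal block 0 genes passed for the cell type difference. The 926 genes kept their direction in each alternative that tested them. With 4 libraries a group, changes under 2-fold are often missed.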

Other observations

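Ribosomal protein genes had a median difference of -0.38 in CSN at 90 days and of -0.02, 0.32 and 0.26 at 30, 60 and 105 days. Among 5, 18, 19 and 4 ribosomal protein genes with up to 1, 1 to 2, 2 to 4 and over 4 kb of exon, the medians at 90 days were -0.53, -0.42, -0.35 and -0.39, and at 60 days 0.32, 0.32, 0.33 and 0.32. None passed at 90 days, and the age contrast passed for none. Nuclear oxidative phosphorylation genes of up to 1 kb had medians of -0.13 at 90 days and 0.24, 0.40 and 0.40 at 30, 60 and 105 days, while those of 2 to 4 kb had 0.48 at 90 days and 0.68, 0.50 and 0.69 at those ages. Over all 163 abundant protein-coding genes with up to 1 kb of exon the median was -0.07 at 90 days and 0.16, 0.30 and 0.24 at the other ages.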
